A study of Mus musculus with 6 samples.

Results

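The miR-30 family was followed in heart muscle of mice, sampled 6 d and 0 h after death. Its members were the mature miRNAs whose name begins with miR-30 and a letter from a to f, which found 11 of the 984 mature miRNAs listed, 5 of them 5p arms and 6 of them 3p arms. All 11 passed the filter on low values (a level of 1 or more, in the scaled reads defined below, in 3 or more libraries) among 470 tested miRNAs. The 11 names carry the letters a to e.

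Small RNA was sequenced in 3 libraries of myocardium with a post-mortem interval of 6 d and 3 with a post-mortem interval of 0 h. The series title names the estimation of the time since death from miRNAs as its subject. The labels give Mus musculus as the organism and state no strain, sex, age, cause of death or storage of the bodies for either interval, and they do not say that the samples of an interval came from separate animals. A p-value here rests on how far the libraries of an interval differ from each other, and that spread may be technical.

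A miRNA precursor is a hairpin whose 2 strands can each give a mature miRNA, named 5p and 3p after the arm they come from. One strand is loaded into an Argonaute protein and guides it to messenger RNAs, while the other is usually broken down. Bases 2 to 8 from the 5′ end, the seed, carry most of the pairing with targets, and members with a shared seed are expected to share targets. The miR-30 5p miRNAs are abundant in heart muscle cells, where in mouse and rat they are known to repress connective tissue growth factor and autophagy genes. The 3p arms are usually the minor products.

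The sequences below show which members share a seed, with the seed in capitals (RefSeq, GRCm38.p6). The 11 members included 7 with an entry in this table. The others are miR-30b-5p, miR-30b-3p, miR-30d-5p and miR-30d-3p.
miR-30a-5p: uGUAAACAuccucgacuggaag
miR-30e-5p: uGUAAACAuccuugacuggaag
miR-30c-5p: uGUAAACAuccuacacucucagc
miR-30a-3p: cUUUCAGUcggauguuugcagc
miR-30e-3p: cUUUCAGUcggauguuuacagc
miR-30c-2-3p: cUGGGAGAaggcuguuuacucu
miR-30c-1-3p: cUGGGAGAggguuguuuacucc

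All 3 of these 5p arms carried the seed GUAAACA and were identical over their first 12 bases. Counted from 1 at the 5′ end, miR-30a-5p and miR-30e-5p differed at 1 base, C13U, while miR-30a-5p and miR-30c-5p differed at 5 of the first 22 bases, C13A, G14C, G18C, G19U and A20C. The 3p arms printed above fell into 2 seed groups. UUUCAGU was carried by miR-30a-3p and miR-30e-3p, which differed at 1 base (G18A). UGGGAGA was carried by the 2 miR-30c 3p arms, which differed at 3 bases (A9G, C12U and U22C from miR-30c-2-3p to miR-30c-1-3p). The sequences of miR-30b and miR-30d arms, which had no entry, were not compared with these. Members that differ at a single base can exchange reads in counting, and how such reads were assigned is not given in the sources used here.

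The miR-30a hairpin (chr1:23272269-23272339, plus strand) and the miR-30c-2 hairpin (chr1:23291701-23291784, plus strand) are separated by 19361 bases. In GENCODE vM21, on the same build, the miR-30c-2 hairpin overlaps an exon of the long noncoding RNA gene Gm27028 and the miR-30a hairpin overlaps no other gene. The miR-30e hairpin (chr4:120772606-120772697, minus strand) and the miR-30c-1 hairpin (chr4:120769534-120769622, minus strand) lie 2983 bases apart in introns of Nfyc, which encodes a subunit of a CCAAT-binding transcription factor and is transcribed from the same strand. miR-30c-5p is produced by both miR-30c hairpins, so its reads cannot be divided between the 2 loci. The hairpins of the linked miR-30a and miR-30c-2 are printed with both mature arms in capitals, since the arms of these neighbours are compared below.
miR-30a hairpin: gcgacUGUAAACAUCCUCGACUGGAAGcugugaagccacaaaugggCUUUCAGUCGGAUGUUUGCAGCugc
miR-30c-2 hairpin: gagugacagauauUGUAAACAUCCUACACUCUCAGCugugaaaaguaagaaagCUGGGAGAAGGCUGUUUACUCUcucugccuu

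The libraries held 617069 to 1889594 miRNA reads at 6 d and 4468547 to 7906557 at 0 h, so depth differed with the interval, and depth and interval cannot be told apart except where thinning is named. Levels are given as scaled reads, that is, reads scaled to 1000000 per library and by a further factor per library, which makes them relative to the other miRNAs of the library. The heart muscle markers miR-1a-3p, miR-133a-3p, miR-208a-3p and miR-499-5p were present in every library and together held 20.4% to 44.6% of the reads at 6 d and 22.8% to 37.4% at 0 h. Of these 4, miR-208a-3p and miR-499-5p were called lower and miR-133a-3p higher. The 2 endothelial markers, the arms of miR-126a, summed to 25279 to 35076 scaled reads at 6 d and 56921 to 88648 at 0 h, without overlap, and 1 of the 2 was called lower. Of the 2 smooth muscle and 4 leukocyte markers 0 were called. All 7 listed epithelial markers summed to between 1408 and 2579 scaled reads at 6 d and between 139 and 439 at 0 h, with 6 of the 7 called higher and 1 at 0 in some library. The 3 erythrocyte markers summed to 57666 to 105053 at 6 d and 22959 to 30098 at 0 h, with 1 of 3 called higher. Among the single markers listed for liver (miR-122-5p) and skeletal muscle (miR-206-3p), both were called higher, miR-206-3p at 685 to 1440 at 6 d and 8.34 to 15.3 at 0 h. The part of these other cells and tissues in the results below was not tested. One library stood apart for the family: 0 h replicate 3 had far lower miR-30a-5p, miR-30d-5p and miR-30e-5p than the other 0 h libraries, so values without it are given beside the results that it moves. In these bulk samples, fewer cells of a type and less RNA per cell cannot be told apart.

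The family held 3.0% ± 0.58 of the miRNA reads at 6 d and 5.89% ± 2.54 at 0 h (SD, n = 3 each). By library its share was 3.03%, 2.40% and 3.55% at 6 d, against 6.55%, 8.04% and 3.09% at 0 h. The intervals overlapped, because 0 h replicate 3 lay below 6 d replicate 3. Exact binomial 95% intervals of these shares were narrow, for example 3.51% to 3.60% in 6 d replicate 3 and 3.08% to 3.10% in 0 h replicate 3, and cover counting error only. The 5p arms made up 97.6% ± 0.87 of the family's reads at 6 d and 93.2% ± 4.82 at 0 h (SD, n = 3 each). The 6 3p arms together were at 573 ± 71.7 scaled reads at 6 d and 3737 ± 576 at 0 h (SD, n = 3 each), without overlap, and the 5 5p arms at 25588 ± 9046 and 66857 ± 35744, with overlap. The difference in share was -2.90 percentage points, and it was -4.30 without 0 h replicate 3 and -1.82 without 0 h replicate 2. No test is given for these sums.

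**Figure D1:**
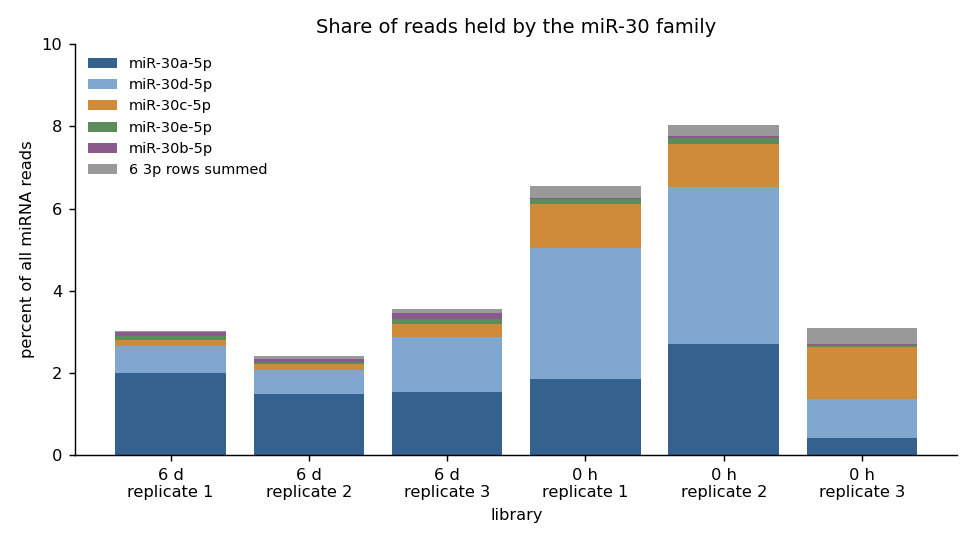
Share of all miRNA reads (percent, vertical axis) held by each 5p arm and by the 6 3p arms summed, in the 3 libraries of 6 d and the 3 of 0 h. The stacks of 6 d end between 2.40% and 3.55% and those of 0 h between 3.09% and 8.04%. miR-30a-5p is the largest block in each 6 d library, while miR-30d-5p is the largest in 0 h replicates 1 and 2 and miR-30c-5p in 0 h replicate 3.

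Of the 11 members, 8 were called lower at 6 d and 0 higher by limma with Benjamini-Hochberg adjusted p under 0.05, where 21.9% of all 470 tested miRNAs were called lower and 16.0% higher (37.9% in either direction). The median log2 fold change was -1.34 over the 11 members, -1.93 over the 6 3p arms and -0.31 over the 5 5p arms, beside -0.33 over all tested miRNAs. The 6 3p arms were all called lower. Of the 5p arms, miR-30c-5p and miR-30d-5p were called lower, and the remaining 3 (miR-30b-5p, miR-30a-5p, miR-30e-5p) had no call. All 6 d libraries lay below all 0 h libraries for 8 members, a pattern that 30.9% of tested miRNAs showed, and above them for miR-30b-5p, as for 19.8%. Without overlap in either direction were 9 members, beside 50.6% of tested miRNAs.

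With libraries scaled by their totals alone, 4 members were called lower (miR-30a-3p, miR-30e-3p, miR-30c-5p and miR-30c-1-3p) and 0 higher, and edgeR on the recovered reads called 5 lower, those 4 and miR-30d-5p, and 1 higher, where it called 20.7% of 363 miRNAs lower and 22.3% higher. Scaling by totals moved the median log2 fold change of all miRNAs from -0.33 to 0.02 and turned 103 lower and 75 higher calls into 40 and 83. Relative to that median, miR-30a-3p stood at -2.83 on the deposited scale and -2.72 by totals, miR-30c-5p at -2.70 and -2.59, and miR-30c-2-3p at -0.78 and -0.68.

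**Figure D2:**
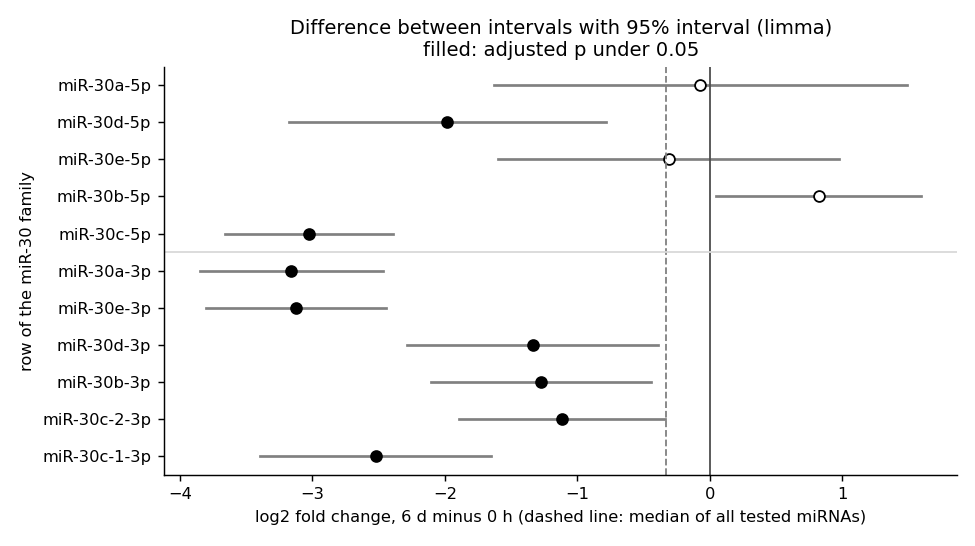
Log2 fold change of each member, 6 d minus 0 h (horizontal axis), with its 95% interval from limma. Filled points have an adjusted p under 0.05 and the dashed line is the median of all tested miRNAs, -0.33. The 6 3p arms and miR-30c-5p and miR-30d-5p lie left of both lines, and miR-30b-5p is the only member right of 0.

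Among the 5p arms, miR-30c-5p had the most negative fold change. It (mmu-miR-30c-5p in full) stood at 1636, 1456 and 1788 scaled reads at 6 d, against 11708, 13824 and 14312 at 0 h. Every 6 d library was far below every 0 h library, and within each interval the highest library was 1.23 times (6 d) and 1.22 times (0 h) the lowest. The log2 fold change was -3.03 ± 0.28 (SE, n = 3 each, limma adjusted p = 8.8e-05), and it stayed between -3.12 and -2.95 when any 1 library was left out, called each time. Its rank among all miRNAs was 30 to 35 at 6 d and 11 to 16 at 0 h.

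miR-30d-5p (mmu-miR-30d-5p), the most abundant member at 0 h on average, also fell. It stood at 7787, 5267 and 7397 scaled reads at 6 d, against 34807, 50220 and 10697 at 0 h. The intervals did not overlap, but 0 h replicate 3 lay much nearer to the 6 d libraries than to the other 0 h libraries. The log2 fold change was -1.98 ± 0.53 (SE, n = 3 each, limma adjusted p = 0.017) and without 0 h replicate 3 it was -2.64 (adjusted p = 0.0011). The call was lost without 6 d replicate 2 (adjusted p = 0.058), 0 h replicate 1 (0.060) or 0 h replicate 2 (0.058), and with library totals alone (0.074).

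mmu-miR-30a-5p, the most abundant member at 6 d, was at 24187, 13901 and 8616 scaled reads at 6 d, against 20060 (replicate 1), 35634 and 4701 at 0 h. The lowest and the highest library were both of 0 h, and the intervals overlapped fully. The log2 fold change was -0.07 with a 95% interval of -1.63 to 1.49 (limma adjusted p = 0.94), which leaves room for a large change either way. It was 0.39 with library totals alone, 0.55 without 0 h replicate 2 and -0.91 without 0 h replicate 3 (adjusted p = 0.70, 0.56 and 0.19).

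mmu-miR-30e-5p, which differs from miR-30a-5p at 1 base, was at 1288, 482 and 715 scaled reads at 6 d, against 1093, 1897 and 409 at 0 h. Again 0 h replicate 3 was the lowest library and 0 h replicate 2 the highest. The log2 fold change was -0.31 with a 95% interval of -1.60 to 0.98 (limma adjusted p = 0.69), and -0.92 without 0 h replicate 3 (adjusted p = 0.17).

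mmu-miR-30b-5p was the 5p arm with higher values at 6 d. It was at 1045, 499 and 701 scaled reads at 6 d, against 397, 407 and 407 at 0 h. Each 6 d library was above the tightly grouped 0 h libraries. The log2 fold change of 0.82 (95% interval 0.05 to 1.60) was not past the threshold with limma (adjusted p = 0.086). The change passed it with edgeR (1.03, adjusted p = 0.040), RLE size factors (1.05, limma adjusted p = 0.034) and DESeq2 (1.10, adjusted p = 0.0070). Every other setting that kept all libraries missed it, with limma adjusted p from 0.051 (scaling by totals) to 0.17 (unfiltered). Thinning gave 0.063. With 1 library omitted the change was 0.55 to 1.08, and 0 of 6 such fits reached the threshold (limma adjusted p = 0.054 to 0.20).

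The 0 h libraries disagreed on miR-30a-5p, miR-30d-5p and miR-30e-5p and agreed on the other 5p arms. From the highest to the lowest 0 h library the levels differed 7.58-fold for miR-30a-5p, 4.69-fold for miR-30d-5p and 4.64-fold for miR-30e-5p, with replicate 2 highest and replicate 3 lowest each time, against 1.22-fold for miR-30c-5p and 1.03-fold for miR-30b-5p. Among 273 tested miRNAs with a mean of at least 10 and no 0 at 0 h, this span had a median of 1.59-fold and reached 4-fold for 18 (6.59%). The 3p arms of the same precursors did not follow: miR-30a-3p, miR-30d-3p and miR-30e-3p were each higher in 0 h replicate 3 than in 0 h replicate 2.

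**Figure D3:**
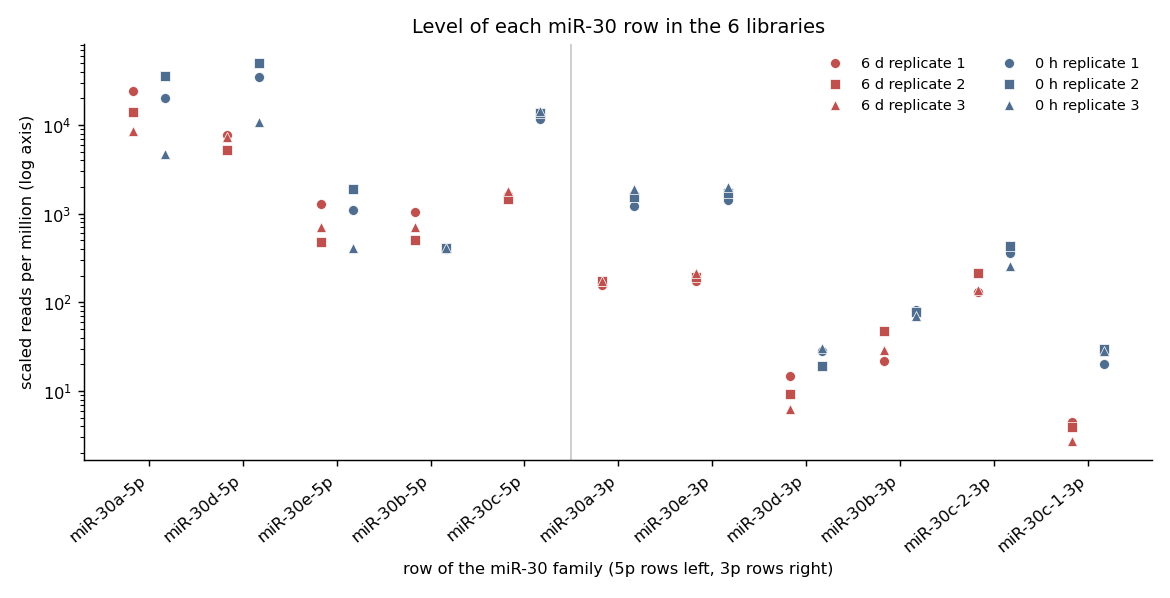
Level of each member in scaled reads (log axis) in the 3 libraries of 6 d (left of each pair) and of 0 h (right), with marker shapes for the replicates. The levels run from 2.71 for miR-30c-1-3p to 50220 for miR-30d-5p. The triangles of 0 h replicate 3 lie low for miR-30a-5p, miR-30d-5p and miR-30e-5p. Among the 3p arms, the intervals are separated most widely for miR-30a-3p and miR-30e-3p.

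Reads of these short RNAs span the whole molecule, so levels of members need no correction for length. How efficiently each sequence was captured in a library was not measured, so the order below ranks reads, not molecules. At 6 d the order of mean level was miR-30a-5p (15568 ± 7918), miR-30d-5p (6817 ± 1357), miR-30c-5p (1627 ± 166), miR-30e-5p (828 ± 415), miR-30b-5p (749 ± 276), miR-30e-3p (194 ± 22.0), miR-30a-3p (170 ± 9.89), miR-30c-2-3p (163 ± 47.3), miR-30b-3p (32.7 ± 13.4), miR-30d-3p (10.1 ± 4.22) and miR-30c-1-3p (3.71 ± 0.90) scaled reads (SD, n = 3). At 0 h it was miR-30d-5p (31908 ± 19920), miR-30a-5p (20132 ± 15467), miR-30c-5p (13281 ± 1384), miR-30e-3p (1709 ± 293), miR-30a-3p (1547 ± 333), miR-30e-5p (1133 ± 745), miR-30b-5p (404 ± 5.86), miR-30c-2-3p (352 ± 90.5), miR-30b-3p (76.6 ± 5.22), miR-30d-3p (26.1 ± 6.08) and miR-30c-1-3p (26.1 ± 5.10), also as mean ± SD of scaled reads (n = 3). Neighbours in this order whose means differed by less than the sum of their SDs were, at 6 d, miR-30a-5p and miR-30d-5p, then miR-30e-5p and miR-30b-5p, then the run from miR-30e-3p to miR-30c-2-3p. At 0 h they were the run from miR-30d-5p to miR-30c-5p, the run from miR-30e-3p to miR-30c-2-3p, and miR-30d-3p with miR-30c-1-3p. These SDs describe spread between libraries and do not compare members within a library. Within libraries, miR-30a-5p was above miR-30d-5p in each of 6 d and below it in each of 0 h. Likewise miR-30e-3p had more reads than miR-30a-3p in every library.

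The make-up of the 5p pool is given as shares, with no test. miR-30a-5p supplied 58.8% ± 12.2 of the family's 5p reads at 6 d and 26.6% ± 10.1 at 0 h, while miR-30c-5p supplied 6.87% ± 2.38 and 25.9% ± 18.3 and miR-30d-5p 28.2% ± 9.03 and 45.1% ± 8.80 (SD, n = 3 each). miR-30b-5p and miR-30e-5p stayed minor, at 2.96% ± 0.67 and 3.18% ± 0.82 at 6 d, against 0.77% ± 0.49 and 1.60% ± 0.26 at 0 h. The share of miR-30c-5p at 0 h was 17.2%, 13.6% and 46.9%, and its difference of -19.0 percentage points was -8.51 without 0 h replicate 3. The shares of miR-30d-5p overlapped, with 38.5% in 6 d replicate 3 and 35.0% in 0 h replicate 3, and their difference of -17.0 points was -22.0 without 0 h replicate 3. For miR-30a-5p the difference of 32.2 points was 26.6 without that library.

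Ratios between 2 members of 1 library are free of its scaling, and all 10 pairs of 5p arms were compared with an exact two-sided permutation test, whose smallest p with 3 against 3 libraries is 0.1. This value was reached by 6 pairs, each with an adjusted p of 0.17 over the 10 pairs, so no pair could pass the threshold. The largest shift was between miR-30b-5p and miR-30c-5p, whose read ratio was 0.639, 0.343 and 0.392 at 6 d, against 0.0339, 0.0295 and 0.0284 at 0 h. On the log2 scale this ratio was 3.85 higher at 6 d, with every 6 d library above every 0 h library. The ratio of miR-30a-5p to miR-30d-5p was 3.11, 2.64 and 1.16 at 6 d, against 0.576, 0.710 and 0.439 at 0 h, so that the leading member of the family was miR-30a-5p in each 6 d library, while miR-30d-5p exceeded it in each 0 h library. The ratio of miR-30a-5p to miR-30e-5p, 1 base apart, was 18.8, 28.9 and 12.1 at 6 d, against 18.3, 18.8 and 11.5 at 0 h. It overlapped (log2 difference 0.24, exact permutation p = 0.5). As miR-30d-5p had no sequence entry, its differences from miR-30a-5p were not counted. Reads exchanged between miR-30d-5p and miR-30a-5p in counting were not tested.

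The 3p arms of miR-30a and miR-30e, which share the seed UUUCAGU, showed nearly equal values throughout. mmu-miR-30a-3p was at 158, 176 and 175 scaled reads at 6 d, against 1222, 1531 and 1887 at 0 h. mmu-miR-30e-3p was at 173, 193 and 217 at 6 d, against 1425, 1693 and 2010 at 0 h. All 6 d libraries lay far below all 0 h libraries for both, with log2 fold changes of -3.16 ± 0.31 and -3.12 ± 0.30 (SE, n = 3 each, limma adjusted p = 8.8e-05 for both). Leaving out any 1 library gave -3.32 to -3.0 for miR-30a-3p and -3.25 to -3.0 for miR-30e-3p, called each time. The ratio of miR-30a-3p to miR-30e-3p reads kept to 0.919, 0.911 and 0.808 at 6 d and 0.857, 0.904 and 0.939 at 0 h, a comparison chosen after the values were seen. These arms differ at 1 base, G18A, and come from hairpins on different chromosomes.

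The 3p arms of the 2 miR-30c hairpins, which share the seed UGGGAGA, were unlike each other in level. mmu-miR-30c-2-3p was at 132, 217 and 138 scaled reads at 6 d, against 361, 438 and 258 at 0 h, which are close but do not overlap. Its log2 fold change was -1.11 ± 0.35 (SE, n = 3 each, limma adjusted p = 0.029). That call was lost without 6 d replicate 1 (adjusted p = 0.060), 6 d replicate 3 (0.064), 0 h replicate 1 (0.097) or 0 h replicate 2 (0.12), with library totals alone (0.33), RLE size factors (0.079), no filter (0.067) or thinned libraries (0.087), and with edgeR (0.065) or DESeq2 (0.066).

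miR-30c-1-3p was the rarest member, with 7, 3 and 3 reads at 6 d, against 83, 177 and 185 at 0 h. In 2 of the 6 d libraries it was thus at the floor of 3 reads. Its fitted log2 fold change was -2.52 ± 0.39 (SE, n = 3 each, limma adjusted p = 0.0011), called whichever library was left out. Pooled over the libraries and set against their scaling (depth and the further factor per library), the reads were 7.08-fold lower at 6 d. The exact 95% interval of 4.10 to 13.4 covers counting error only.

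The remaining 3p arms, those of miR-30b and miR-30d, were lower by smaller and less certain amounts. miR-30b-3p was at 21.6, 47.6 and 28.9 scaled reads at 6 d, against 81.1, 77.8 and 70.9 at 0 h, with a log2 fold change of -1.27 ± 0.37 (SE, n = 3 each, limma adjusted p = 0.023). It was not called without 6 d replicate 1 (adjusted p = 0.0501), 0 h replicate 1 (0.088), 0 h replicate 2 (0.068) or 0 h replicate 3 (0.051), nor with library totals alone (0.27), RLE size factors (0.054), thinned libraries (0.13) or edgeR (0.069). miR-30d-3p had 23, 7 and 7 reads at 6 d, against 116, 116 and 200 at 0 h, and a log2 fold change of -1.34 ± 0.42 (SE, n = 3 each, limma adjusted p = 0.031). Its call was lost without 6 d replicate 2 (adjusted p = 0.063), 6 d replicate 3 (0.063), 0 h replicate 1 (0.10) or 0 h replicate 3 (0.11), with library totals alone (0.18), RLE size factors (0.055) or no filter (0.060), and with edgeR (0.056) or DESeq2 (0.077).

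The balance of the arms within a precursor was tested for all 138 precursors with both arms past the filter, with limma fitted to log2((5p reads + 1)/(3p reads + 1)). Of the 6 miR-30 precursors 4 changed this ratio, where 34.8% of all precursors did. miR-30a, miR-30e and miR-30b moved toward the 5p arm at 6 d, as 17.4% of all precursors did, and miR-30c-2 moved toward the 3p arm, as 17.4% also did. The libraries did not overlap in any of these 4, which 28.3% of all precursors showed with 6 d above and 26.8% with 6 d below. miR-30d and miR-30c-1 were not called.

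For miR-30a there were 153, 79.0 and 49.2 reads of the 5p arm per read of the 3p arm at 6 d, against 16.4, 23.3 and 2.49 at 0 h. Every 6 d library was above every 0 h library, and 0 h replicate 3 was far below the other 0 h libraries. The log2 ratio was 3.09 ± 0.90 higher at 6 d (SE, n = 3 each, limma adjusted p = 0.034). Without 0 h replicate 3 the difference was 2.10 (adjusted p = 0.048), and the call was lost without 6 d replicate 1 (adjusted p = 0.073), 6 d replicate 2 (0.089) or 0 h replicate 1 (0.061).

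In miR-30e the ratio also moved toward the 5p arm at 6 d. There were 7.47, 2.49 and 3.30 reads of the 5p arm per read of the 3p arm at 6 d, against 0.767, 1.12 and 0.203 at 0 h. The 5p arm thus had more reads in all 3 libraries of 6 d, and the 3p arm in 2 of the 3 libraries of 0 h. The log2 ratio was 2.81 ± 0.74 higher at 6 d (SE, n = 3 each, limma adjusted p = 0.029) and 2.08 higher without 0 h replicate 3 (adjusted p = 0.043). It was not called without 6 d replicate 1 (adjusted p = 0.062) or 0 h replicate 1 (0.052).

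The arms of miR-30b also moved apart, with 48.3, 10.5 and 24.3 reads of the 5p arm per read of the 3p arm at 6 d, against 4.90, 5.23 and 5.74 at 0 h. The 0 h libraries were nearly equal and the 6 d libraries all above them. The log2 ratio was 2.09 ± 0.62 higher at 6 d (SE, n = 3 each, limma adjusted p = 0.035). Called with all libraries and without 6 d replicate 2, it was not called without 6 d replicate 1 (adjusted p = 0.062), 6 d replicate 3 (0.070), 0 h replicate 1 (0.11), 0 h replicate 2 (0.073) or 0 h replicate 3 (0.065).

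miR-30c-2 went the other way, with 12.4, 6.71 and 13.0 reads of miR-30c-5p per read of miR-30c-2-3p at 6 d, against 32.4, 31.6 and 55.5 at 0 h. All 6 d libraries were below all 0 h libraries. The log2 ratio was 1.92 lower at 6 d, a difference of -1.92 ± 0.51 (SE, n = 3 each, limma adjusted p = 0.030), which was not called without 6 d replicate 2 (adjusted p = 0.055), 0 h replicate 1 (0.076), 0 h replicate 2 (0.055) or 0 h replicate 3 (0.071). Against the 3p arm of the other miR-30c hairpin, the ratio was 367, 367 and 661 at 6 d and 579, 470 and 501 at 0 h, which overlap, with a log2 difference of -0.53 and a 95% interval of -1.54 to 0.47 (limma adjusted p = 0.38). With 5 reads added to each arm in place of 1 it was called, at -1.35 (adjusted p = 0.026), and the 3p arm had 3 to 7 reads at 6 d. Both ratios use the same miR-30c-5p reads, whose split between the hairpins is unknown.

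For miR-30d both arms were lower at 6 d, and their ratio had 532, 568 and 1171 reads of the 5p arm per read of the 3p arm at 6 d, against 1233, 2603 and 346 at 0 h. The intervals overlapped, with 0 h replicate 3 the lowest library. The log2 difference was -0.69 with a 95% interval of -2.45 to 1.07 (limma adjusted p = 0.49), and -1.48 without 0 h replicate 3 (adjusted p = 0.092). After every library was thinned to 617069 reads, miR-30a, miR-30b, miR-30e and miR-30c-2 were again the 4 with a changed arm ratio.

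**Figure D4:**
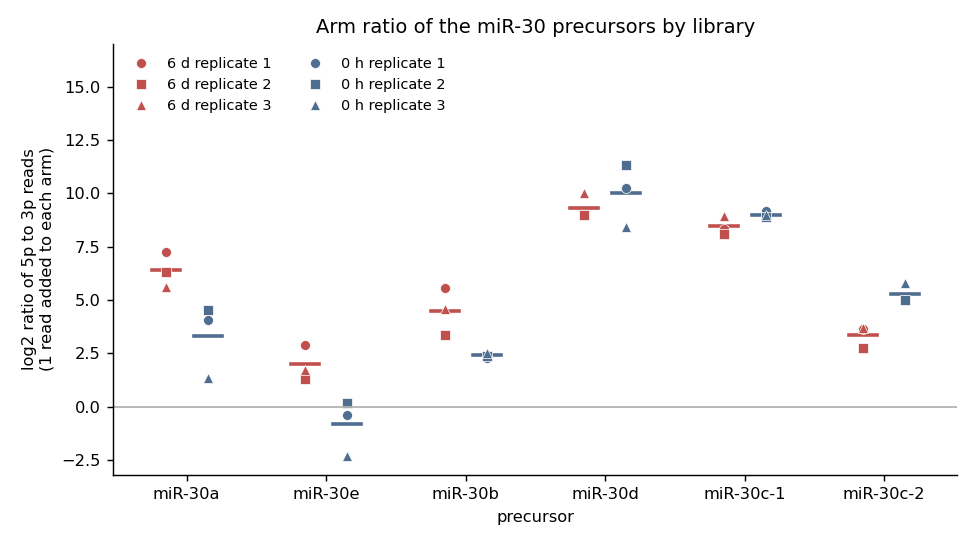
Arm ratio of the 6 miR-30 precursors, log2((5p reads + 1)/(3p reads + 1)) on the vertical axis, with a point per library, 6 d left and 0 h right, and a bar at the mean. The 6 d points lie above all 0 h points for miR-30a, miR-30e and miR-30b, below them for miR-30c-2, and among them for miR-30d and miR-30c-1. The 0 h points of miR-30e straddle 0, the level at which both arms have equal reads.

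**Figure D5:**
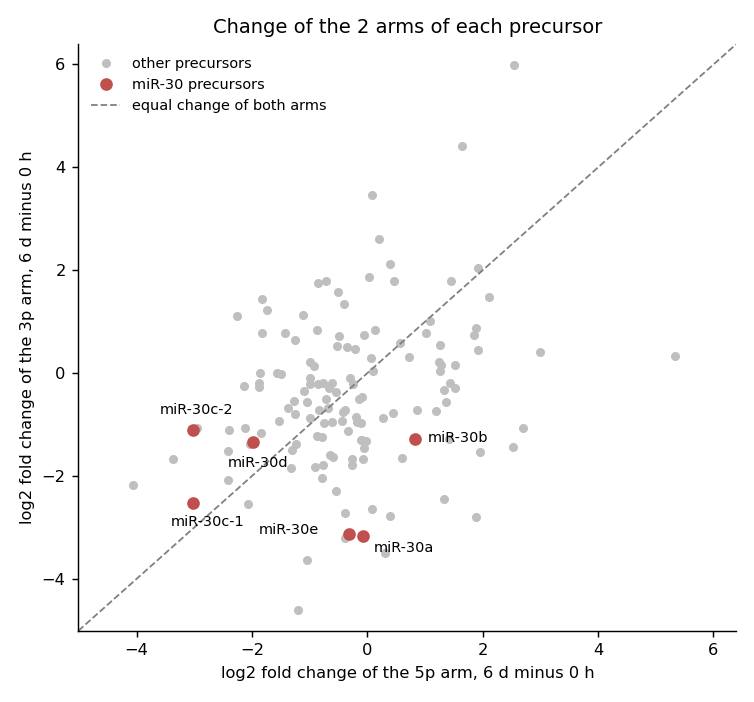
Log2 fold change of the 5p arm (horizontal axis) and of the 3p arm (vertical axis), 6 d minus 0 h, for the 138 precursors with both arms tested, with the 6 miR-30 precursors in red and a dashed line where both arms change equally. miR-30a and miR-30e lie together near 0 for the 5p arm and near -3 for the 3p arm, the 2 miR-30c precursors share their value for the 5p arm, and miR-30b is the miR-30 precursor with a positive value for the 5p arm.

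Set out by position, the log2 fold changes of the arms were as follows. On chromosome 1, miR-30a had a 5p arm with a log2 fold change of -0.07 and a 3p arm at -3.16, while miR-30c-2 had a 5p arm at -3.03 and a 3p arm at -1.11. On chromosome 4, miR-30e had -0.31 and -3.12, and miR-30c-1 -3.03 and -2.52. The 3p arms of miR-30e and miR-30c-1 and miR-30c-5p had overlapping 95% intervals. The interval of miR-30a-3p on chromosome 1 (-3.85 to -2.47) overlapped each of these as well. On chromosome 4, the interval of miR-30e-5p (-1.60 to 0.98) did not overlap that of miR-30e-3p (-3.80 to -2.44). The reads of miR-30c-5p cannot be assigned to either chromosome. miR-30a and miR-30e, 1 base apart in either arm, had log2 fold changes of similar size in both arms, though not similar levels in the 5p arm. Reads exchanged between them in counting were not tested.

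Among the 7 members with a sequence, the G+C content of those called lower overlapped that of the uncalled miR-30a-5p and miR-30e-5p. The uncalled miR-30b-5p had no sequence entry. Whether base composition bears on the changes was not tested. The 5p arms had a G+C content of 43.5% (miR-30c-5p), 45.5% (miR-30a-5p) and 40.9% (miR-30e-5p), and the 3p arms 50.0% (miR-30a-3p and miR-30c-2-3p), 45.5% (miR-30e-3p) and 54.5% (miR-30c-1-3p). Of the 470 tested miRNAs 407 had a sequence, with a median G+C content of 47.6%, and Spearman's rho between G+C content and log2 fold change across these miRNAs, which are not independent and share the 6 libraries, was -0.17. The last base was G in the uncalled miR-30a-5p and miR-30e-5p, C in miR-30c-5p, miR-30a-3p, miR-30e-3p and miR-30c-1-3p, and U in miR-30c-2-3p, over 7 members only.

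Outside the family, 851 of the 984 listed miRNAs had a sequence in the table, and of these 1 shared the seed GUAAACA, miR-384-5p, while 0 shared UUUCAGU or UGGGAGA. miR-384-5p, known from brain, had 1, 0 and 2 reads at 6 d, against 1, 2 and 4 at 0 h, and did not pass the filter.

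Among 264 other tested miRNAs with a mean of at least 10, those most like the summed 3p arms over the 6 libraries by Pearson's r of log2 values were miR-139-5p (r = 0.997), miR-700-3p (0.991) and miR-151-3p (0.988). Their log2 fold changes were -4.06, -2.78 and -2.30 (limma adjusted p = 8.8e-05, 0.00066 and 0.00071). Those most like the summed 5p arms were miR-382-3p (r = 0.95), miR-378a-3p (0.94), which lies within a gene of energy metabolism and is abundant in muscle, and miR-378d (0.94). In the same order, the log2 fold changes were -1.44, -0.88 and -1.40 (limma adjusted p = 0.024, 0.15 and 0.024), so miR-378a-3p was not called. miR-378a-3p was at 27080, 25214 and 16281 scaled reads at 6 d, against 38668, 76225 and 23444 at 0 h, with 0 h replicate 2 highest among the 0 h libraries and 0 h replicate 3 lowest, as for miR-30a-5p. These correlations describe 6 libraries that form 2 intervals, so any pair of miRNAs that differs between the intervals correlates.

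Set beside other families, the miR-30 members had 8 of 11 called lower, where 21.9% of all tested miRNAs were called lower and 16.0% higher. Among let-7 5p arms 4 of 9 were called lower (median log2 fold change -0.99, 0 called higher). For miR-26 5p arms it was 1 of 2 (median 0.08, 1 called higher), and for miR-29 3p arms 1 of 3 (median 0.12, 0 called higher). Counted over the 5p arms, the miR-30 family had 2 of 5 called lower. The difference between families was not tested.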

How the data were processed

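Trizol RNA and the NEBNext Multiplex Small RNA kit are named per the labels' protocols. The submitters' processing notes list STAR 2.5.3a, cutadapt 2.8, Trimmomatic 0.39 and FastQC, without saying what each did. Not given in the sources used here: counting tool, annotation and build. The deposited file of 0 h replicate 1 holds read counts, and the other 5 deposited files hold log2(x + 1) values, where x was a whole multiple of 1 step per library for all 2692 values that could be tested (within 0.0005 on the log2 scale). Reads were recovered from these steps. The counts of 0 h replicate 1 were brought to the deposited scale with a derived factor of 0.919, not stated by the authors.

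The test was limma 3.58.1 (trended prior, robust) on log2(value + 1), over the 470 miRNAs that reached 1 in 3 or more libraries. This scale understates the change of low miRNAs. Alternatives were other scalings, pseudocounts, filters, edgeR 4.0.16, DESeq2 1.42.0, a replicate block, thinning (1 random draw) and leaving out each library. The steps were also run on simulated data in which every miRNA had the same spread beyond counting error. That check covers the working of the steps and not the spread of these libraries. Replicates differed beyond sampling noise (chi-square per degree of freedom 216 or more). The floor of 3 reads was 1.91 to 3.97 scaled reads at 6 d and 0.463 to 0.730 at 0 h. No molecular identifiers are named in the labels, so intervals and floors cover counting error only. All members are named, other miRNAs by seed, correlation or marker lists. Members and lists were chosen with earlier results of these data known.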

Additional observations from a re-analysis of the deposited data

How the results depend on the processing

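The number of members called lower, 8 with all libraries, was 5 with RLE size factors, 4 with library totals alone, 5 with edgeR and 6 after thinning. It was 4 to 6 over the fits that omit a library (fewest without 0 h replicate 1). Lower calls among all tested miRNAs changed too, from 103 of 470 to 84 of 468 with RLE and 40 of 472 with library totals. They were 75 of 363 with edgeR, 66 of 468 after thinning and 58 of 443 without 0 h replicate 1. The number called higher, 0, was 1 with RLE size factors, edgeR and DESeq2, each time miR-30b-5p. Changed arm ratios numbered 4, and 5 with 5 reads added to each arm (miR-30c-1 at -1.35, adjusted p = 0.026), but 0 to 3 over the fits that omit a library (none without 0 h replicate 1, and 1 without 6 d replicate 1), where fewer precursors were called in general (18 to 34 of 124 to 129, against 48 of 138). The cause was not tested. The family's share of reads differed by -2.90 percentage points, and by -4.30 to -1.82 with 1 library left out. Signs changed for miR-30a-5p (log2 fold change 0.15 with RLE, 0.39 with library totals, 0.026 after thinning, -0.91 to 0.55 with 1 library left out), for miR-30e-5p (0.15 with library totals, -0.92 to 0.19 with 1 left out) and for the ratio of miR-30a-5p to miR-30e-5p (-0.074 to 0.55 with 1 left out), none of them called. Of the 187 fold changes recomputed for members, 144 kept direction and side of the threshold. Same-numbered libraries deviated together at correlations of 0.07, 0.06 and 0.27, which does not establish pairing, and with the replicate block 8 members were called lower and 4 arm ratios changed. At 6 d, miR-30c-1-3p and miR-30d-3p had the fewest reads, and both stayed called after thinning (limma adjusted p = 0.0042 and 0.034). Thinning removed the calls of miR-30c-2-3p (limma adjusted p = 0.087) and miR-30b-3p (0.13).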
